A study of Mus musculus with 6 samples.

Results

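The genes of the major histocompatibility complex (MHC) class I and class II pathways were followed in the livers of insulin-resistant (IR) mice with and without an injection of insulin. The set held every gene whose name begins with H2-, the prefix of the mouse MHC, other than names marked -ps for pseudogene, together with B2m, Cd74, Ciita, Nlrc5, Tap1, Tap2 and Tapbp. It counted 48 of the 54532 genes in the deposited table. Of these, 29 were class I H2- genes, 11 were class II H2- genes, 7 were the named partners, transporters and regulators, and 1, H2-Ke6, encodes the enzyme HSD17B8 and belongs to neither class.

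The 6 libraries came from whole liver of male C57BL/6J mice, which carry no engineered allele. All mice of both groups were put on a high-fat diet (HFD) at 8 weeks of age and kept on it for 6 weeks, and all were fasted for 16 h. The IR insulin group (n = 3) then received 0.75 units of insulin per kg body weight intraperitoneally, and the IR vehicle group (n = 3) received bovine serum albumin (BSA), the carrier. Livers were taken 6 h later, so the comparison asks which transcripts differed at that time under IR. Each library was 1 mouse, and chow-fed mice are not analysed here.

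MHC class I molecules pair a heavy chain with β2-microglobulin and show fragments of the cell's own proteins to CD8 T cells. Nearly every nucleated cell carries them, hepatocytes included. MHC class II molecules pair an α with a β chain and show fragments of engulfed proteins to CD4 T cells, and in liver they are known mainly from Kupffer cells, dendritic cells, B cells and the sinusoidal lining. NLRC5 activates transcription of class I genes and CIITA that of class II genes, through a shared assembly of factors on the X and Y boxes of their promoters, while class I promoters also hold elements for interferon-responsive factors and for NF-κB.

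Shown are promoters of the 3 most abundant class I genes and of an α and a β chain of class II, from different molecules. They make that division visible, since the comparison below sets the classes against each other. Each run is the 250 bases before the RefSeq start on build GRCm38.p6, 5′ to 3′ on the gene's strand. Capitals mark matches on either strand to ATTGG (the core of the Y box), to GAANNGAAA (like an interferon-stimulated response element, ISRE) and to GGGNNTTCC (like an NF-κB site). The windows lie at chr17:34000348-34000597, minus strand (H2-K1), chr17:35262844-35263093, plus strand (H2-D1), chr17:35469839-35470088, plus strand (H2-Q10), chr17:34287824-34288073, minus strand (H2-Aa) and chr17:34305617-34305866, plus strand (H2-Eb1).
H2-K1: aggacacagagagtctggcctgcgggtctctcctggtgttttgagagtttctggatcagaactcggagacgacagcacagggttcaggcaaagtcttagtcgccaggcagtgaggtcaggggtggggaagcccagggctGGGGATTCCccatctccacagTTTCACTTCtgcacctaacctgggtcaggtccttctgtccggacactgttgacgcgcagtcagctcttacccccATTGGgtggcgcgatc
H2-D1: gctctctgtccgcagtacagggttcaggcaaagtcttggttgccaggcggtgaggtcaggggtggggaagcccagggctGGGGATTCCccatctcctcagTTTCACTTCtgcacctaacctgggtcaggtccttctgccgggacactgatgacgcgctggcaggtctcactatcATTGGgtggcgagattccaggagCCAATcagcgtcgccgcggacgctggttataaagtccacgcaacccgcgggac
H2-Q10: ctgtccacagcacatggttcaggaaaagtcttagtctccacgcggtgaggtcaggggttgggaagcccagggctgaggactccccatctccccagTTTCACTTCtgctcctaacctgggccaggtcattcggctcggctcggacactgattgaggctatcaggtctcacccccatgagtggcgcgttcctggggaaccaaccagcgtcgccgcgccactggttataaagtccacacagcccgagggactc
H2-Aa: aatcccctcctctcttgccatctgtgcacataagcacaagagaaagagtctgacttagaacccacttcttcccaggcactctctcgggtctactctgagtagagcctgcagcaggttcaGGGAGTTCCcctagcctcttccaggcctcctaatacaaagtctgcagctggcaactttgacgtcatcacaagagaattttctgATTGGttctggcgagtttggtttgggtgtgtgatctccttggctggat
H2-Eb1: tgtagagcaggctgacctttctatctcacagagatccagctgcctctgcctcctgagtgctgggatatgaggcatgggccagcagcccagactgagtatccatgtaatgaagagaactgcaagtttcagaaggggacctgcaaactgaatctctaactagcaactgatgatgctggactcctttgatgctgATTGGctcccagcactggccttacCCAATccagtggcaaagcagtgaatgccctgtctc

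H2-K1 and H2-D1 held the NF-κB-like letters, then the ISRE-like letters on the opposite strand, then a Y box, in that order towards the start. Among these 3 motifs, the H2-Q10 window had the ISRE-like match alone, 155 to 147 bases before the start. The H2-Eb1 window had matches to the Y box letters alone among them. Over the 9 class I genes that passed the filter on low counts and had a promoter entry, 7 held the ISRE-like letters and 5 the NF-κB-like letters, against 6.34% and 4.88% of all 27025 promoters of this length. Of the 5 such class II genes, 0 held the ISRE-like and 1, H2-Aa, the NF-κB-like letters. Y box letters were found in 8 of the 9 class I and 4 of the 5 class II promoters and in 34.5% of all promoters. The X box letters CCNAGNNAC, not capitalised here, were found in 2 of 9, 3 of 5 and 14.6%. Their place relative to the Y box was not required. In H2-DMb1 they lay 98 to 90 bases before the start, with the Y box at 61 to 57. In H2-Aa they lay at 180 to 172 (Y box at 48 to 44) and in H2-DMb2 at 192 to 184 (Y box at 90 to 86). A match thus need not be an X box, and near spellings such as actagcaac in H2-Eb1 were not counted. In the 5 windows shown, matches to different motifs did not overlap. The ISRE-like shares are of that spelling only. Other spellings, among them agtttcactttc in the H2-T22 window, were not counted, in these genes or in all promoters. These are matches of letters, with no measurement of binding.

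Library totals ran from 18449986 to 21827619 counts, and 3 counts corresponded to 0.130 to 0.184 CPM (counts relative to TMM-scaled library size), which is also the level that a count of 0 allows, for counting error only. Vehicle replicate 2 stood apart, with a Pearson correlation of log2 CPM of 0.878 to 0.920 with the other libraries. Its transcripts also departed from the others by GC content, as set out below, so values without it are given beside several results. Vehicle replicate 3 departed to a lesser degree, at 0.948 to 0.954 with vehicle replicate 1 and the insulin libraries. Those libraries had 0.980 to 0.988 among themselves. Values without vehicle replicate 2 thus rest on vehicle replicates 1 and 3. All 9 hepatocyte markers found in the table were well above the filter, Alb at 38255 to 138554 CPM.

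At the depth of these libraries, 27 of the 48 genes passed the filter on low counts: 14 class I genes, 6 class II genes and all 7 partners and regulators. A further 8 had some counts but did not pass (H2-Bl, H2-Eb2, H2-Ke6, H2-M10.6, H2-M2, H2-Oa, H2-Ob and H2-Q2), with at most 20 counts in any library, and H2-Ke6 shares 96.3% of its 50-base windows with the overlapping gene Gm20427. The remaining 13, among them most of the H2-M10 group, H2-Q3, H2-T3, H2-Pa and H2-Pb, had 0 counts in all 6 libraries.

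No MHC gene passed the test between IR insulin and IR vehicle. Of the 27 genes tested, 23 had a higher mean with insulin and 4 a lower one (B2m, H2-T10, H2-T24 and H2-DMb2), and the median log2 fold change was 0.34, against −0.017 over the 13377 genes tested, of which 48.6% were above 0. Most of the 27 had a GC content of 50 to 60%. Among all genes tested, 64.2% of those with 50 to 55% GC and 82.1% of those with 55 to 60% were above 0. None reached an unadjusted p under 0.05 in edgeR's quasi-likelihood test, with 0 of 27 past the study's criteria (log2 fold change of at least 0.35 in size and unadjusted p under 0.05), against 2.86% of all genes. DESeq2 likewise placed 0 of them past those criteria, against 2.38% of all genes. The smallest unadjusted p was 0.0721, for Tap1, and adjusted p ran from 0.852 to 0.929. In no gene were the 3 insulin libraries all above or all below the 3 vehicle libraries, an arrangement seen in 12.3% of all genes tested.

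**Figure D1:**
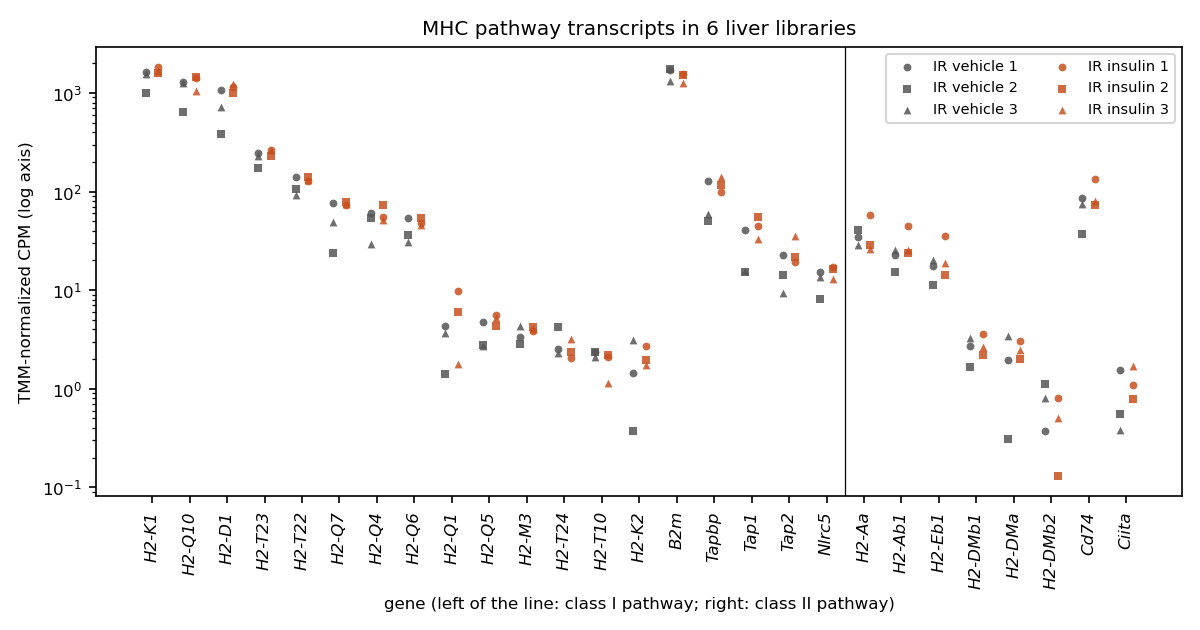
TMM-normalised CPM (log axis) of the 27 MHC pathway genes that passed the filter, with 1 point per library, vehicle in grey and insulin in orange and the marker shape giving the replicate. Values of the groups overlap in every gene, and vehicle replicate 2 (grey square) is the lowest point in 16 of them.

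Among the classical class I heavy chains, H2-K1 and H2-D1 present peptides to CD8 T cells. H2-K1 (ENSMUSG00000061232, chromosome 17, 33996017 to 34000347, minus strand, build GRCm38) stood at 1639, 995 and 1571 CPM in vehicle replicates 1 to 3 and at 1816, 1596 and 1657 CPM in insulin replicates 1 to 3. Vehicle replicate 2 was low, vehicle replicate 1 lay within the insulin range and vehicle replicate 3 just under it. Its log2 fold change was 0.27 ± 0.28 (SE), with a 95% interval of −0.38 to 0.92 and an unadjusted p of 0.368 in edgeR. Without vehicle replicate 2 it was 0.078.

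H2-D1 (ENSMUSG00000073411, chromosome 17, 35262730 to 35267499, plus strand) was the abundant class I gene with the widest gap between the groups. Its levels were 1076, 384 and 712 CPM under vehicle against 1145, 994 and 1245 CPM under insulin. Vehicle replicates 2 and 3 lay below all insulin libraries, and vehicle replicate 1 lay within them. The log2 fold change was 0.64 ± 0.38 (interval −0.24 to 1.52, unadjusted p 0.131 in edgeR) and 0.34 without vehicle replicate 2. H2-D1 relative to H2-K1, as a difference of log2 CPM within each library, was −0.61, −1.37 and −1.14 with vehicle and −0.67, −0.68 and −0.41 with insulin. Vehicle replicate 1 again sat among the insulin libraries.

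H2-Q10 encodes a class I molecule that the liver secretes into the blood. It was at 641 to 1305 CPM under vehicle against 1042 to 1436 CPM under insulin, a log2 fold change of 0.29 ± 0.34. The 641 CPM was vehicle replicate 2, and without it the fold change was 0.029. Together, H2-K1, H2-D1 and H2-Q10 made up 83.2 to 88.7% of the class I CPM of each library, so the class I sum is mostly that of these 3 genes. Per kilobase of longest transcript, H2-K1 averaged 825 CPM, H2-D1 440.5 and H2-Q10 274 over the 6 libraries.

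The other non-classical class I genes were less abundant, at 88.9 CPM per kilobase (H2-T23) or less. H2-T23 (Qa-1, a ligand of the natural killer cell receptor NKG2A) ranged from 172 to 267 CPM over all libraries, and H2-T22, which binds receptors of some γδ T cells, from 93.2 to 142 CPM. Their log2 fold changes were 0.23 ± 0.24 and 0.22 ± 0.23, and that of H2-T23 was 0.094 without vehicle replicate 2. H2-Q7, which encodes a Qa-2 molecule anchored to the membrane by lipid, had 75.9, 23.6 and 48.8 CPM under vehicle against 72.4, 77.6 and 75.2 CPM under insulin. The insulin libraries were close together and vehicle replicate 1 fell among them, at a log2 fold change of 0.60 ± 0.39 and 0.27 without vehicle replicate 2.

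H2-Q4 and H2-Q6 lay between 29.1 and 72.6 CPM, with log2 fold changes of 0.32 ± 0.31 and 0.30 ± 0.26. H2-M3, which presents formylated peptides of bacteria and mitochondria, and H2-Q1, H2-Q5, H2-T10, H2-T24 and H2-K2 were all below 10 CPM in every library. H2-Q1 had the largest fold change on the log2 scale among the 27 genes, at 0.89 ± 0.63, but its insulin libraries spread from 1.80 to 9.73 CPM and overlapped the vehicle range of 1.41 to 4.34 CPM. H2-T10 and H2-T24 had fold changes below 0, at −0.31 ± 0.38 and −0.24 ± 0.38. H2-Q5 and H2-T10 are annotated as polymorphic pseudogenes and H2-K2 as a transcribed pseudogene.

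Class I genes resemble each other in sequence, and their counts are uncertain to that degree. Of all 50-base windows of the longest transcript, 58.5% in H2-T22 and 50.1% in H2-T10 also occur in a transcript of another gene, each most often in the other. The share was 28.5 to 36.9% in H2-Q4, H2-Q5, H2-Q6 and H2-Q7, 19.7% in H2-Q10, 14.3% in H2-D1 and 8.11% in H2-K1. It was 0% in B2m, Cd74, H2-Ab1, H2-Eb1, H2-DMa and Nlrc5.

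B2m, which encodes the light chain β2-microglobulin (ENSMUSG00000060802, chromosome 2, 122147686 to 122153083, plus strand), was the one abundant class I gene with a lower mean in the insulin group. It stood at 1709, 1732 and 1319 CPM under vehicle against 1542, 1521 and 1261 CPM under insulin. Replicate 3 of each group was the lowest and the ranges overlapped, at a log2 fold change of −0.14 ± 0.26 (interval −0.73 to 0.45, unadjusted p 0.600 in edgeR). Its transcript has a GC content of 41.2%, the lowest of the 27, and with the offset for GC content described below the fold change became 0.090. In vehicle replicate 2, where every one of the 3 leading heavy chains was lowest, B2m was at its highest. B2m relative to the class I sum was accordingly −0.49 on the log2 scale there, against −1.84 to −1.43 in the other 5 libraries.

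Tap1 and Tap2 encode the transporter that carries peptides into the endoplasmic reticulum. Without an offset for GC content, they had the largest fold changes among genes averaging above 10 CPM. With the GC offset described below, the log2 fold change was 0.58 in Tap1 and 0.23 in Tap2. H2-Q7 (0.49), H2-D1 (0.36) and H2-Eb1 (0.33) were then above Tap2. Tap1 (ENSMUSG00000037321, chromosome 17, 34187553 to 34197225, plus strand) was at 41.1, 15.1 and 15.5 CPM under vehicle against 44.3, 55.4 and 33.0 CPM under insulin. Vehicle replicates 2 and 3 were below every insulin library, while vehicle replicate 1 was above insulin replicate 3. The log2 fold change was 0.89 ± 0.43 (interval −0.10 to 1.88, unadjusted p 0.0721, adjusted p 0.852 in edgeR), 0.65 without vehicle replicate 2 and 1.53 without vehicle replicate 1.

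Tap2 (chromosome 17, 34203527 to 34216321, plus strand) had 22.8, 14.2 and 9.35 CPM under vehicle against 19.3, 21.6 and 35.5 CPM under insulin. Vehicle replicate 1 lay above 2 of the insulin libraries, and insulin replicate 3 was the highest of all. Its log2 fold change was 0.72 ± 0.38 (unadjusted p 0.0955 in edgeR). Tapbp, which encodes tapasin, the bridge between the transporter and the empty class I molecule, was at 129, 50.2 and 59.0 CPM under vehicle against 98.0, 118 and 142 CPM under insulin, a log2 fold change of 0.59 ± 0.38 (unadjusted p 0.161 in edgeR) and 0.35 without vehicle replicate 2. With the GC offset the log2 fold change of Tapbp was 0.19. In Tap1, Tap2 and Tapbp alike, vehicle replicate 1 fell within the insulin range and the other vehicle libraries below it. On the opposite strand, Tap1 overlaps Psmb9, Tap2 overlaps Gm15821 and Gm20496, and Tapbp overlaps Gm19412. Tapbp also overlaps Zbtb22 on its own strand. The share of 50-base windows found in another gene was 21.0% in Tapbp and 12.6% in Tap2. The use of strand in counting is not given in the sources used here.

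Leaving out vehicle replicate 1 took 6 of the 27 genes past the study's criteria, all higher with insulin (H2-D1, H2-Q5, H2-Q7, Tap1, Tap2 and Tapbp). In that comparison 4.48% of all genes passed as higher, and 1349 of 13750 passed in either direction. The vehicle group then consisted of replicate 3 and replicate 2, the library that stood apart. Without vehicle replicate 2, 0 MHC genes passed, against 3.69% of all genes. Tap1 and Tap2 passed where no filter on low counts was set, against 3.22% of all genes, and H2-Q1 alone passed without insulin replicate 3, against 0.875%.

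Nlrc5, the transactivator of class I genes (chromosome 8, 94434356 to 94527272, plus strand), stood at 15.2, 8.10 and 13.5 CPM under vehicle against 17.2, 16.5 and 13.0 CPM under insulin. Vehicle replicate 2 was the lowest, and the other libraries lay between 13.0 and 17.2 CPM. The log2 fold change was 0.34 ± 0.29 (unadjusted p 0.272 in edgeR) and 0.12 without vehicle replicate 2. A further 10 genes of class I peptide supply were listed from the immunoproteasome, the proteasome activator and the chaperones. Of these 10, 7 had a higher mean with insulin, 3 a lower one and 0 an unadjusted p under 0.05, at a median log2 fold change of 0.22. The smallest p values belonged to Psmb10, Psmb8 and Psme2, subunits of the immunoproteasome and of its activator, at 0.65 ± 0.44, 0.55 ± 0.37 and 0.27 ± 0.21.

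The class II genes were far less abundant than the leading class I genes, with 21.7 CPM per kilobase in H2-Ab1, 11.7 in H2-Eb1 and 11.2 in H2-Aa on average over the 6 libraries. The library that stood out in them was insulin replicate 1. H2-Aa encodes the α chain of the I-A molecule and H2-Ab1 its β chain. H2-Aa (ENSMUSG00000036594, chromosome 17, 34282744 to 34287823, minus strand) was at 34.3, 40.6 and 28.5 CPM under vehicle against 58.3, 28.4 and 26.2 CPM under insulin. Insulin replicate 1 was the highest library and the other insulin libraries were the lowest ones. The log2 fold change was 0.13 ± 0.34 (unadjusted p 0.723 in edgeR), and without insulin replicate 1 its sign turned, to −0.33.

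H2-Ab1 (ENSMUSG00000073421, chromosome 17, 34257689 to 34269419, plus strand) was at 22.5, 15.2 and 25.7 CPM under vehicle against 44.9, 23.8 and 25.5 CPM under insulin. Insulin replicate 1 was again highest, and vehicle replicate 3 lay above the remaining insulin libraries. Its log2 fold change of 0.57 ± 0.33 (interval −0.18 to 1.33, unadjusted p 0.119 in edgeR) became 0.23 without insulin replicate 1. H2-Eb1 encodes the β chain of I-E. No gene for the α chain of I-E was among the 48 genes followed, so its values are of the β chain transcript only. H2-Eb1 had 17.7, 11.4 and 20.2 CPM under vehicle against 35.2, 14.3 and 18.8 CPM under insulin. Its log2 fold change of 0.47 ± 0.38 became 0.27 without vehicle replicate 2 and 0.015 without insulin replicate 1.

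H2-DMa and H2-DMb1 or H2-DMb2 form the H2-DM molecule, which loads peptides onto class II in the endosome. H2-DMa had 1.96, 0.307 and 3.43 CPM under vehicle against 3.06, 1.99 and 2.44 CPM under insulin. H2-DMb1 had 2.70, 1.66 and 3.24 CPM under vehicle against 3.56, 2.21 and 2.68 CPM under insulin. Vehicle replicate 2 was lowest in both, and the groups overlapped, at log2 fold changes of 0.38 ± 0.69 and 0.15 ± 0.38. H2-DMb2, at 0.370, 1.10 and 0.811 CPM under vehicle against 0.810, 0.130 and 0.507 CPM under insulin, was at the floor of 3 counts in its lowest library. Its log2 fold change was −0.65 ± 0.71, and H2-DMb1 shares 27.2% of its windows with it.

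Cd74 encodes the invariant chain, which occupies the class II groove until peptide is loaded. It was at 86.5, 37.3 and 74.0 CPM under vehicle against 133, 73.9 and 80.8 CPM under insulin. Insulin replicate 1 was highest, vehicle replicate 2 lowest, and the other 4 libraries lay between 73.9 and 86.5 CPM. The log2 fold change was 0.54 ± 0.37 (interval −0.32 to 1.40, unadjusted p 0.183 in edgeR), 0.26 without vehicle replicate 2 and 0.24 without insulin replicate 1. Ciita, the transactivator of class II, was at 1.53, 0.552 and 0.382 CPM under vehicle against 1.08, 0.779 and 1.71 CPM under insulin, with overlapping groups and a log2 fold change of 0.53 ± 0.62, which was 0.32 without vehicle replicate 2.

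A list of 9 other genes of class II loading and turnover had 4 with a higher and 5 with a lower mean with insulin, at a median log2 fold change of −0.047. Cd83 is a membrane protein that stabilises class II at the surface. It was listed with earlier results of these data known, so its place in this list and its p are no independent support. Cd83 was the 1 gene of 9 with an unadjusted p under 0.05 in edgeR, where 2.86% of all genes tested passed the study's criteria. It was at 1.27, 3.56 and 2.58 CPM under vehicle against 0.675, 0.520 and 0.554 CPM under insulin, and no insulin library reached the lowest vehicle library, an absence of overlap seen in either direction in 12.3% of all genes. The log2 fold change was −2.07 ± 0.49, with an unadjusted p of 0.00292 but an adjusted p of 0.852 in edgeR. March1, a ubiquitin ligase that removes class II from the surface, and Lgmn, an endosomal protease, had the next smallest p values, at −0.85 ± 0.56 and 0.43 ± 0.31.

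**Figure D2:**
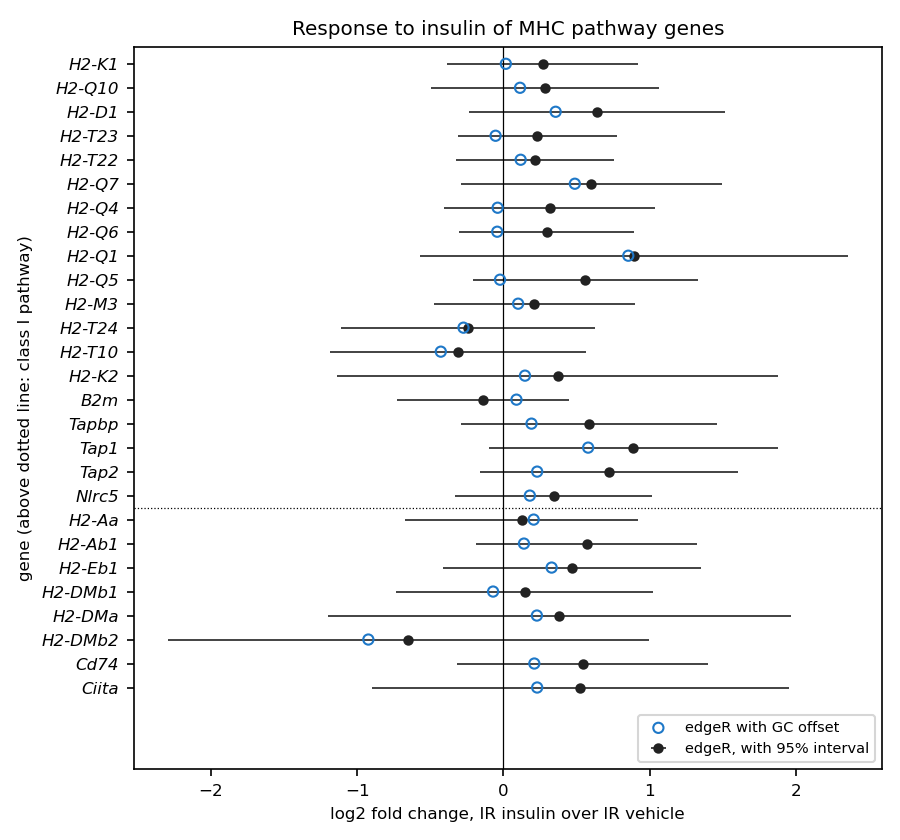
Log2 fold change of IR insulin over IR vehicle for the 27 genes tested, with the 95% interval from edgeR (black) and the value with an offset for GC content (blue circles). Every interval includes 0, and with the offset 19 of the 27 values lie above 0 in place of 23.

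The classes were then set against each other. Summed over its genes, class I was at 4617, 2427 and 3994 CPM under vehicle against 4991, 4620 and 4529 CPM under insulin. Vehicle replicate 2 was far below the rest, and vehicle replicate 1 lay within the insulin range. Class II sums were 80.2, 72.6 and 82.7 CPM under vehicle against 147, 71.6 and 76.4 CPM under insulin, so that insulin replicate 1 alone was set apart and the other insulin libraries lay within the vehicle range or under it. Class I averaged 3680 ± 1128 CPM under vehicle against 4713 ± 245 CPM under insulin (SD, n = 3). Class II averaged 78.5 ± 5.29 and 98.3 ± 42.1 CPM.

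**Figure D3:**
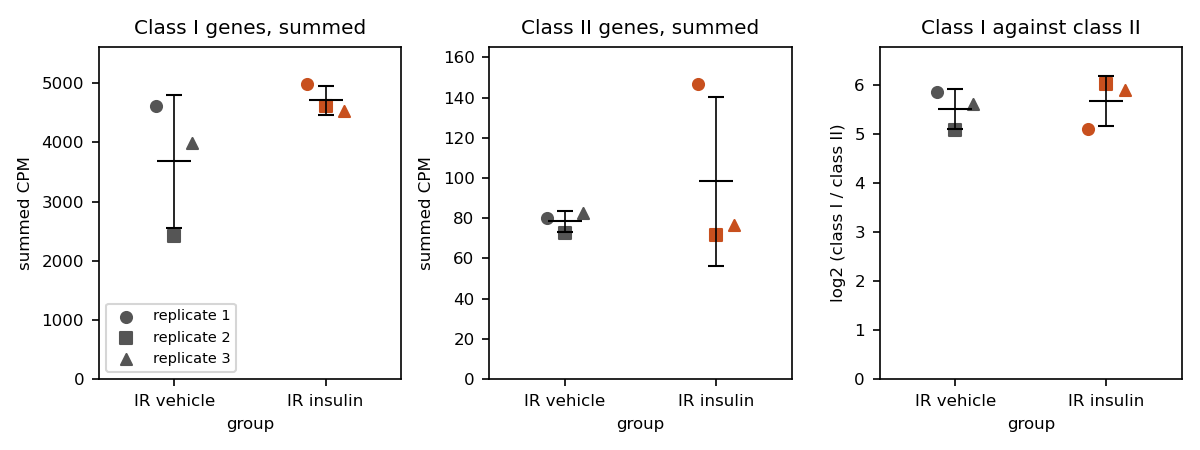
Summed CPM of class I H2- genes (left) and class II H2- genes (middle) and the log2 ratio of the sums (right) in each library, with the group mean and SD as bars. The low class I point is vehicle replicate 2 at 2427 CPM, and the high class II point is insulin replicate 1 at 147 CPM.

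As a log2 ratio within each library, class I over class II was 5.85, 5.06 and 5.59 with vehicle and 5.09, 6.01 and 5.89 with insulin. The group means were 5.50 ± 0.40 and 5.66 ± 0.50 (SD, n = 3), a difference of 0.16 that is smaller than either SD. It took the opposite sign without vehicle replicate 2 (−0.058) and without insulin replicate 2 (−0.014), and with the GC offset it was 0.0060. The median log2 fold change was 0.29 over the 14 class I genes, with 12 above 0, and 0.26 over the 6 class II genes, with 5 above 0. Without vehicle replicate 2 these medians were 0.13 and 0.095, and without insulin replicate 1 they were 0.25 and −0.018. The direction of the class II median thus depended on insulin replicate 1, and that of the class I median on no one library.

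The libraries that set these values differed between the classes. Vehicle replicate 2 was the lowest library in 16 of the 27 genes, 8 of them class I and 4 class II, vehicle replicate 3 in 6 and vehicle replicate 1 in 0. Insulin replicate 1 was the highest in 10 genes, of which 4 were among the 6 class II genes and 4 among the 14 class I genes. The median deviation from each gene's mean over the 6 libraries was 0.74 on the log2 scale for class II in insulin replicate 1 and 0.23 for class I there. In vehicle replicate 2 it was −0.65 for class II and −0.49 for class I.

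**Figure D4:**
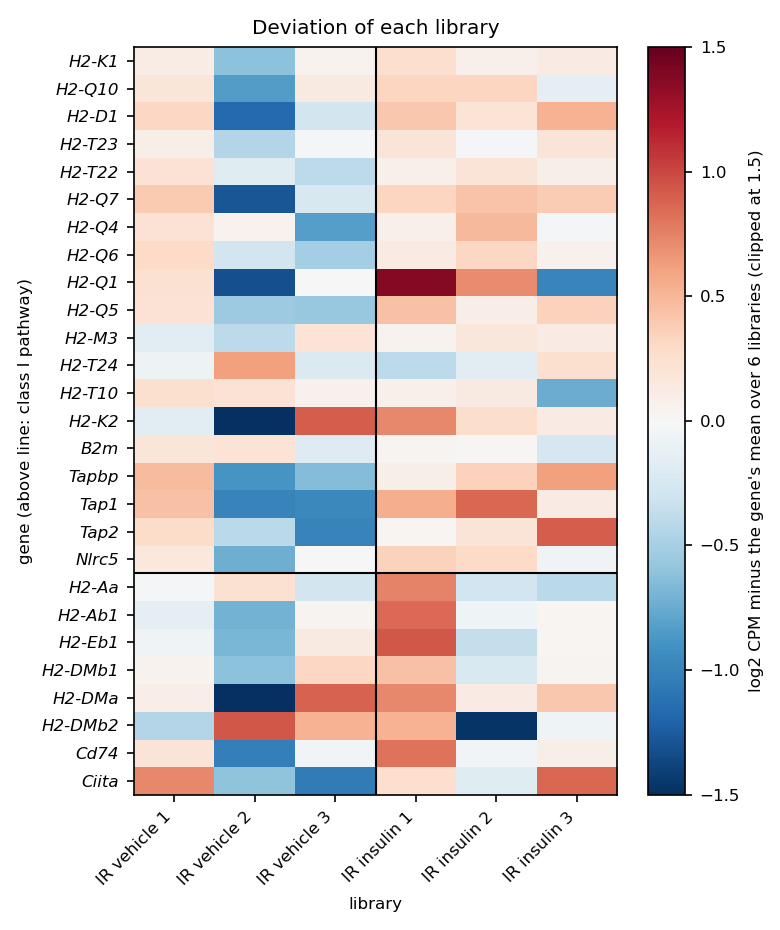
Log2 CPM of each of the 27 genes in each library minus the gene's mean over the 6 libraries, in red where higher and blue where lower (clipped at 1.5). The column of vehicle replicate 2 is blue for most genes of both classes, and that of insulin replicate 1 is red for all 6 class II genes and the highest of the insulin libraries in each.

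The sums of Kupffer cell and dendritic cell markers were also highest in insulin replicate 1, though not every marker was. The summed level of 10 Kupffer cell markers was 426, 299 and 576 CPM under vehicle against 750, 423 and 407 CPM under insulin, and all 10 passed the filter. The highest sum was in insulin replicate 1 and the lowest in vehicle replicate 2, the libraries at the ends of Cd74 as well. Marco and Cd5l, at 135 and 179 CPM, were highest in insulin replicate 1, whereas Clec4f, Vsig4 and C1qa were highest in vehicle replicate 3 and Timd4 in vehicle replicate 2. Of 10 dendritic cell markers 5 passed the filter, with sums of 9.25 to 9.44 CPM under vehicle against 9.35 to 13.0 CPM under insulin, the highest again in insulin replicate 1, although Clec9a was highest in vehicle replicate 3, Zbtb46 in insulin replicate 2, and Flt3 had 0 counts in vehicle replicates 1 and 2. Of 10 B cell markers 4 passed, with sums of 6.56, 43.3 and 7.54 CPM under vehicle against 4.29 to 12.0 CPM under insulin. The B cell sum was thus highest in vehicle replicate 2, mainly through Ighm at 29.4 CPM, although Cd79a had 0 counts in that library. Among the other lists, the sums of 10 endothelial cell markers were 223 to 394 CPM under vehicle and 249 to 268 CPM under insulin, and those of 10 T and natural killer cell markers, 3 of which passed, were 3.58 to 4.49 and 3.04 to 4.64 CPM. Stellate cell markers summed to 206 to 268 and 157 to 259 CPM, and bile duct markers to 19.8 to 45.4 and 23.1 to 50.8 CPM. The 9 hepatocyte markers summed to 79371, 179476 and 110323 CPM under vehicle against 66870 to 82911 CPM under insulin, highest in vehicle replicate 2, where the class I sum was lowest. Most of that sum was Alb, at 138554 CPM, while Apoa1 and Hnf4a were at their lowest in vehicle replicate 2, at 3901 and 445 CPM. The part of any of these cells in the class I or class II values was not tested, and in whole liver fewer cells of a type and less RNA per cell cannot be told apart.

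GC content moved with the differences between the groups. Over all genes tested, the median log2 fold change was −0.46 for genes whose longest transcript had under 40% GC and 0.44 for those with 60% or more, with 0.11 from 50 to 55% and 0.31 from 55 to 60%. Vehicle replicate 2, set against the median of the other libraries, ran from 0.95 to −1.88 over the same ranges. The 27 MHC genes had a median GC content of 54.3%, and 23 of them lay between 50 and 60%. Their median log2 fold change was 0.27 in the 13 genes from 50 to 55% and 0.57 in the 10 genes from 55 to 60%. With a GC offset for each library, 19 of the 27 were above 0, against 42% of all genes, with a median of 0.14. Class I then had a median of 0.059, with 8 of 14 above 0, and class II one of 0.17, with 4 of 6 above 0.

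**Figure D5:**
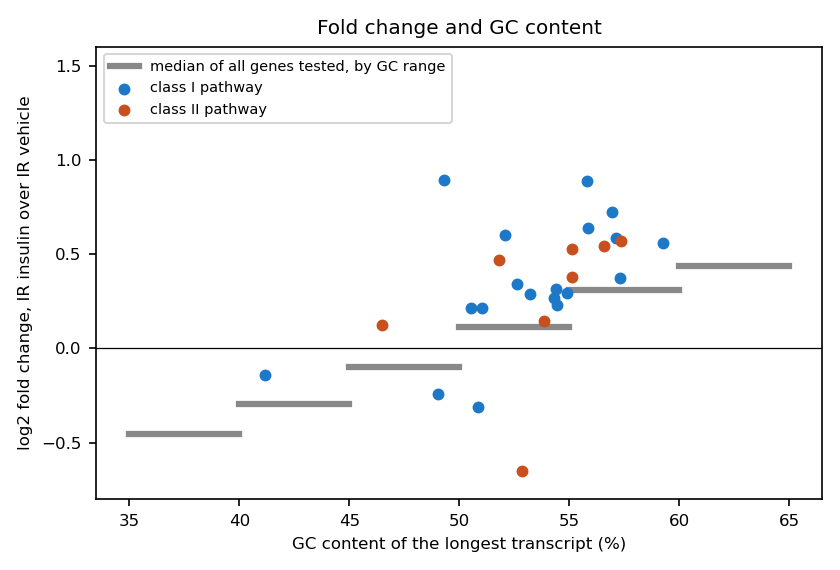
Log2 fold change of each MHC gene against the GC content (%) of its longest transcript, class I pathway in blue and class II pathway in orange, with the median of all genes tested in each GC range as grey bars. The grey bars climb from −0.46 to 0.44 on the log2 scale, and most MHC genes lie where the bars are above 0.

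Most of the H2- genes lie close together on chromosome 17, between 33974659 and 37483552 on build GRCm38. In that stretch 80 other genes were tested, with 70 above 0, 10 below and a median log2 fold change of 0.42. Of these 80, 4 passed the study's criteria as higher, against 1% of all genes, and 0 as lower. Their median GC content was 55.8%, and their median fold change with the GC offset was 0.087.

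The factors that act on MHC promoters did not pass the test either. Of 7 genes that encode the RFX, NF-Y and CREB proteins of the X and Y boxes, 5 had a higher mean with insulin and 0 an unadjusted p under 0.05, at a median log2 fold change of 0.16. Nfya, a subunit that contacts the Y box, came closest. It was at 12.3, 10.01 and 9.44 CPM under vehicle against 15.8, 15.8 and 12.9 CPM under insulin, at 0.49 ± 0.23 (unadjusted p 0.0685 in edgeR). Its groups did not overlap, which was so in 12.3% of all genes tested. Rfxank and Nfyb followed, at 0.49 ± 0.28 and −0.48 ± 0.32.

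Interferon gamma is a strong inducer of both MHC classes. Ifng had at most 0.0866 CPM in any library, under the floor of 3 counts. Of 16 genes of its pathway 15 were tested, with 6 above and 9 below 0, 0 at an unadjusted p under 0.05 and a median log2 fold change of −0.11. The median turned to 0.17 without vehicle replicate 2. Irf1, a factor that binds ISRE elements, was at 20.8, 11.5 and 15.4 CPM under vehicle against 27.8, 28.5 and 17.8 CPM under insulin, with vehicle replicate 1 inside the insulin range, at 0.63 ± 0.30 (unadjusted p 0.0695 in edgeR). Jak1 and Socs1, a kinase and an inhibitor of the pathway, followed at −0.35 ± 0.29 and 0.93 ± 1.004. The summed level of the list was 3077, 3021 and 672 CPM under vehicle against 1556, 2728 and 1478 CPM under insulin. Vehicle replicate 3 was the lowest by far. It was also the lowest library in 6 of the 27 MHC genes (H2-T22, H2-Q4, H2-Q5, H2-Q6, Tap2 and Ciita). Vehicle replicate 2 was lowest in 16 of them and in the class I sum. A link between the list and the MHC genes was not tested.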

How the data were processed

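Liver RNA was sequenced in 6 mice, 1 library per mouse. The deposited table holds raw counts of reads per gene, which the authors neither normalised nor pooled. NEBNext Ultra libraries were read on a HiSeq instrument by the authors and, per the labels, aligned with Bowtie2 2.2.3 to mm10. The counting program, its annotation and its use of strand are not given in the sources used here. Groups came from the sample labels.

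All 54532 genes entered edgeR 4.0.16 (R 4.3.3) as counts. filterByExpr (minimum count 10, minimum total 15) left 13377 genes. The quasi-likelihood test with TMM scaling compared IR insulin with IR vehicle without covariates, two-sided, with Benjamini-Hochberg adjustment over all 13377. The biological coefficient of variation was 0.357, which limits what 3 against 3 mice can resolve. The criteria of the study were a log2 fold change of at least 0.35 in size and an unadjusted p under 0.05. CPM are counts over TMM-scaled library sizes. Log2 CPM for deviations used a prior count of 2. The GC offset was a loess curve (span 0.5) per library on GC content, which 13367 genes had. Coordinates, GC content and 50-base windows came from GENCODE M21, and promoters from RefSeq (GRCm38.p6), which matched 34 of the 48 genes, 17 of them among those tested. Symbols that the table holds as dates were matched by Ensembl identifier. The test was checked on simulated counts, which had a smaller spread than these data and no GC trend or outlying library. That check does not show how the test behaves under those features.

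The genes and lists were chosen with earlier results of these data known, Cd83 among them. Every gene that passed the filter is named, values in every library are given for the classical class I and the class II genes, their partners and regulators, and from each other pathway list the 3 genes with the smallest p are named. Marker lists are given by their sums, with single markers chosen after their values were seen. H2-Q7, Irf1 and Nfya are also given by library, a choice made after their values were seen. Alternatives were DESeq2 1.42.0, voom with sample quality weights (limma 3.58.1), other size factors, no filter on low counts, the GC offset, the replicate number as a block, and leaving out each library.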

Additional observations from a re-analysis of the deposited data

How the results depend on the processing

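The precision is that of 3 mice per group, in which standard errors of the log2 fold changes ran from 0.23 to 0.71. Adjusted p of the 27 genes stayed at or above 0.473 under every alternative run. The number of MHC genes past the study's criteria, 0, was also 0 with RLE and upper-quartile size factors, DESeq2, voom with quality weights and the GC offset. It was 2 without the filter on low counts (Tap1 and Tap2, with 35 genes tested) and 0 to 6 when libraries were left out in turn, at 6 without vehicle replicate 1 and 1, H2-Q1, without insulin replicate 3. Over all genes the count of 383 became 742 without the filter (23040 genes tested), 213 with voom and 548 with DESeq2, and 99 to 1349 when libraries were left out, lowest without insulin replicate 1 and highest without vehicle replicate 1. It was 888 without vehicle replicate 3, 143 without insulin replicate 2 and 120 without insulin replicate 3.

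The groups share replicate numbers, and nothing in the labels says that these pair the mice. Deviations from the group mean in same-numbered libraries had r of −0.039, 0.069 and 0.017 across genes. Differently numbered libraries had r of −0.11 to 0.089. Such values cannot show whether the mice were paired. With the replicate number as a block, 1 MHC gene passed the criteria (Tap1, at a log2 fold change of 1.02), and also 1 with the block and the GC offset (Tap1, at 0.66), while all genes gave 321 and 335.

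Signs turned in some genes, and the cause was not tested. With the GC offset this held for B2m (0.090), H2-T23 (−0.053), H2-Q4 (−0.039), H2-Q6 (−0.042), H2-Q5 (−0.023) and H2-DMb1 (−0.070), and with the block and the GC offset for B2m (0.10), H2-T23 (−0.049) and H2-DMb1 (−0.080). With voom it was Ciita (−0.032). Leaving out a library moved H2-Aa over −0.33 to 0.34, H2-T24 over −0.43 to 0.071, H2-DMa over −0.11 to 1.12, H2-DMb1 over −0.075 to 0.36 and H2-K2 over −0.084 to 1.22, with the turn in sign without insulin replicate 1 for H2-Aa, without either that library or vehicle replicate 2 for H2-DMb1, and without vehicle replicate 2 for the others. It moved the class I median over 0.13 to 0.43, the class II median over −0.018 to 0.50 and the class I minus class II difference over −0.058 to 0.45.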
